A study of Mus musculus with 9 samples.

Results

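The regions described here are AGO-bound stretches of RNA in mouse liver that hold a seed match for the microRNA miR-24 and none for miR-122. AGO (Argonaute) is the protein a microRNA is loaded into to find its targets. Members were taken from the deposited matrix as every unique region with at least 1 row of the miR-24 family and no row of the miR-122 family. There were 2680 members among 92645 regions, or among the 82017 regions without a miR-122 match. A further 277 regions held matches for both microRNAs and were left out.

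The study used AGO CLIP-seq, in which ultraviolet light crosslinks AGO to the RNA it holds and the recovered fragments are sequenced. Livers came from 5 control mice and 4 miR-122 knockout (KO) mice, all 6 weeks old, with 1 library per mouse. Per the labels the controls were littermates that carry floxed alleles, 3 females and 2 males, and the KO mice were 1 female and 3 males. The sources used here do not give the Cre driver, the strain background or the cells in which miR-122 was deleted. As a check of the labels, the region over the miR-122 precursor gene held 270 to 447 counts in the control libraries and 3 to 52 in the KO libraries.

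MicroRNAs guide AGO to messenger RNAs mainly through the seed, the stretch near the 5′ end of the microRNA that pairs with the target, and bound targets are as a rule less stable and less translated. miR-24 is made from a pair of gene clusters that also encode miR-23 and miR-27, and it is known for targets in cell cycle, apoptosis and TGF-beta signalling. In liver it has been tied to lipid handling and fibrosis, and it is expressed in many cell types besides hepatocytes. Depth ran from 445912 to 1170130 counts per library, and replicates of a group differed by more than sampling noise, so none was taken for a repeat deposit.

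The mature sequences of the cluster are shown because the seed defines membership. Capitals mark the seed, bases 2 to 8 counted from the 5′ end. Both miR-24 genes give the same mature sequence, Mir24-2 at chr8:84208875-84208896 and Mir24-1 at chr13:63301251-63301272 (RefSeq, GRCm38.p6, plus strand).
miR-24-3p: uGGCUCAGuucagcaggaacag
miR-23a-3p: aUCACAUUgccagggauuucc
miR-27a-3p: uUCACAGUggcuaaguuccgc
The miR-24 seed differs from those of its cluster partners. Of the members, 134 also held a miR-23 match and 197 a miR-27 match. These are 5.0% and 7.35% of the members, beside 4.35% and 7.31% of all regions without a miR-122 match.

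A match pairs with seed bases 2 to 7 and reads TGAGCC in DNA letters. A 7mer-m8 adds the base that pairs with position 8, a 7mer-A1 adds an A after the match, and an 8mer, CTGAGCCA, has both. No genome sequence was used here, and 23 member sites could be read because they lie in RefSeq windows around gene starts or in microRNA hairpins. All 23 held the 6 letters, and in all 23 the class read from the letters was the deposited one. The same 6 letters, on the sense strand and searched in 32851 windows of 300 bases, occurred in 10.3% of them. The sites below show a match in 5 histone H2B genes and in a pair of similar selenium-binding protein genes, with the match in capitals.
Hist1h2be, 8mer, chr13:23585936-23585963, minus strand: tctgaagatgcCTGAGCCAgccaagtcc
Hist1h2bf, 7mer-m8, chr13:23574170-23574197, minus strand: accaaccatgcCTGAGCCtgctaagtcc
Hist1h2bj, 7mer-m8, chr13:22043223-22043247, plus strand: cttcactatgcCTGAGCCtgcgaag
Hist1h2bq, 7mer-m8, chr13:21810151-21810178, minus strand: tctcatcatgcCTGAGCCtgcgaagtcc
Hist1h2br, 7mer-m8, chr13:21833764-21833791, plus strand: tctcatcatgcCTGAGCCtgcgaagtcc
Selenbp1, 7mer-m8, chr3:94933088-94933115, plus strand: actggtctctgCTGAGCCtctgctcgtt
Selenbp2, 7mer-m8, chr3:94693588-94693615, plus strand: actggtctctgCTGAGCCtctgctcatt
The sites are shown because similar windows limit how reads can be placed. In each of the 5 histone sites the letters atg stand 1 base before the match. The Hist1h2bq and Hist1h2br windows are identical, and reads may have been assigned to either. They differ from the Hist1h2be window at 5 of 28 bases, and the Hist1h2bf window differs from it at 7.

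Among the members, 931 had a 6mer, 514 a 7mer-A1, 754 a 7mer-m8 and 481 an 8mer as their longest match. Coding sequence held 1032 of them and 3'UTRs 1021, while 174 lay in 5'UTRs and 172 in introns. As shares, 38.1% of members lay in 3'UTRs and 6.49% in 5'UTRs, beside 33.7% and 4.28% of all regions without a miR-122 match. A gene name was given for 2499 members, spread over 2089 genes, of which 332 held 2 or more. Fasn, which encodes fatty acid synthase, held the most with 6. Regions were mostly 70 bases wide. Among members of that width 38.7% had the centre of the match within 10 bases of the centre of the region, 13.6% had it 20 or more bases upstream and 20.01% had it 20 or more downstream. The deposited conservation score, the mean phyloP of the matched bases, had a median of 0.92 over the 2632 members that had a score. Its median was 0.78 for 8mers and 0.99 for 6mers, so longer matches did not have the higher score with all annotations pooled. The score was not compared within annotations. Another microRNA family also had a match in 1575 members, and 1105 held a miR-24 match alone.

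Counts at the miR-24 genes themselves were measured through the regions over their hairpins. The region over the Mir24-2 hairpin, chr8:84208854-84208923, is no member. Its level, in CPM (reads per 1000000 of the TMM-scaled library size), was 249, 177, 101, 111 and 173 in controls 1 to 5 and 80.5, 161, 234 and 394 in KO replicates 1 to 4. The groups overlapped, with the lowest and the highest value both in KO libraries. The log2 fold change, KO over control, was 0.21 ± 0.45 (SE), with an adjusted p of 0.741. Regions over Mir23a, Mir27a, Mir23b and Mir27b gave log2 fold changes between 0.21 and 0.61, with adjusted p between 0.348 and 0.765. KO replicate 4 was the highest of the 9 libraries at all 5 hairpin regions. No region overlapped the Mir24-1 hairpin. The Mir24-2 region covers the mature miR-24 sequence, which is the same at both genes. The sources used here do not say how reads common to both were assigned, so the counts are not specific to Mir24-2. The SE of 0.45 leaves room for a change in either direction.

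Members took 1.83%, 1.75%, 1.91%, 1.84% and 1.72% of all counts in controls 1 to 5 and 2.31%, 2.38%, 2.37% and 2.27% in the KO libraries. Every KO library lay above every control, and the means were 1.81% ± 0.08 (SD, n = 5) and 2.33% ± 0.05 (SD, n = 4). The total changed as well: regions without a miR-122 match held 75.0% of counts in controls and 95.6% in KO. Taken over those regions alone, members held 2.41% ± 0.14 of counts in controls and 2.44% ± 0.05 in KO, and the groups overlapped. On that scale members in 3'UTRs went from 0.96% ± 0.09 to 1.07% ± 0.05, and members in coding sequence from 0.92% ± 0.07 to 0.80% ± 0.09. The groups overlapped in both. All tested regions without a miR-122 match were split by place too, at a median log2 fold change of 0.54 in 3'UTRs and -0.04 in coding sequence. No test was made of these shares, since members were chosen with results of these data known.

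**Figure D1:**
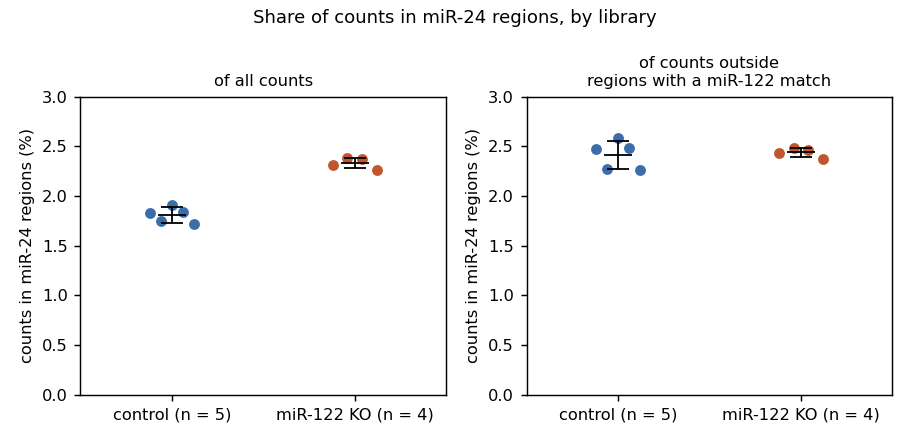
Share of counts in miR-24 regions (%, y axis) for the 5 control and 4 KO libraries, as points with mean and SD, out of all counts (left) and out of counts in regions without a miR-122 match (right). On the left every KO library lies above every control, while on the right the groups overlap at means of 2.41% and 2.44%.

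The comparison of KO with control asks whether AGO binding at these regions differed once miR-122 was gone. Of the 2680 members, 458 had enough reads to be tested, since the filter keeps a region with sufficient counts in either group alone. Among them 63 were lower and 98 higher in KO at an adjusted p under 0.05. Over all 17182 regions tested, miR-122 regions included, 27.6% were lower and 17.5% higher. Without miR-122 regions the shares over the other 13915 tested were 13.2% lower and 21.3% higher, and the members' shares were 13.8% and 21.4%. These shares lay near that background in both directions, so they are no result about miR-24 regions in particular. The median log2 fold change of the 458 members was 0.32, beside 0.26 for regions without a miR-122 match and 0.03 for all regions. Of these calls 60.9% were higher, and 74.2% with upper quartile scaling (50 lower, 144 higher). Without control replicate 4, 376 members were tested and 62 were higher. Other scalings moved the median of all regions by between -0.12 and 0.23, so a median nearer to 0 than that has no settled sign. By contrast, where a region held matches for both miR-24 and miR-122, 64 of 71 tested were lower and 0 higher, at a median of -3.56. The share over all regions with a miR-122 match was not taken, so this is no result about regions with both.

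Markers of other cell types moved with genotype. Summed over 16 neuron markers, the level was 57.0 to 74.4 CPM in controls and 2184 to 2881 CPM in KO replicates 1 to 3, and 12423 CPM in KO replicate 4. All 16 markers had reads in KO, and 8 of them, among them Gap43, Stmn2 and Syn1, had none in controls. A score of these markers as a covariate left 2 members lower and 0 higher, but the score and genotype do not overlap between groups, so their effects cannot be told apart in that fit. Without KO replicate 4, 92 of the 98 higher members were still higher and 60 of the 63 lower members still lower. Summed stellate cell markers ran from 567 to 758 CPM in controls and from 1262 to 1787 CPM in KO, and summed hepatocyte markers from 33442 to 42050 CPM and from 19623 to 24054 CPM. Glia (379.9 to 606 and 765 to 2799.5 CPM), macrophage (278 to 333 and 375 to 593 CPM) and cholangiocyte markers (17.4 to 51.3 and 90.3 to 140.2 CPM) were also higher in KO without overlap. The cholangiocyte sum rests on 3 of 5 markers, since Krt19 and Epcam had no region. Macrophage sums rest on 6 of 7 markers and glia sums on 5 of 6. Endothelial markers overlapped at 602 to 704 CPM in controls and 396 to 646 CPM in KO. Erythroid markers, 3 of 4 with a region, overlapped too, at 4495 to 6852 and 6141 to 13091 CPM. The part of these markers in the results below was not tested, nor was the part of miR-122 sites on the marker genes in these sums. In whole liver, fewer cells of a type and less RNA per cell cannot be told apart, nor can a change in RNA amount from a change in AGO binding.

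**Figure D2:**
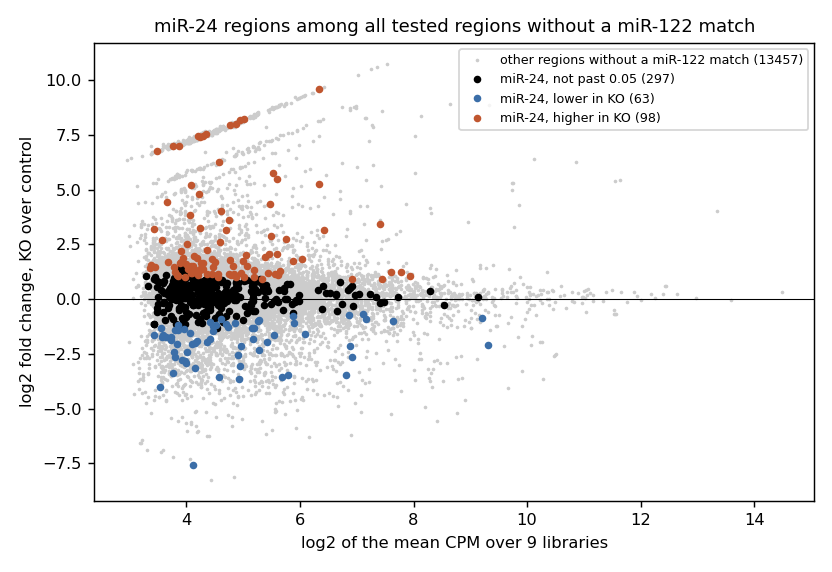
Log2 fold change, KO over control (y axis), against the log2 of the mean CPM over 9 libraries (x axis) for tested regions without a miR-122 match. Grey points are the 13457 regions that are not members, coloured points the 63 lower and 98 higher members, and the rising bands at the top are regions with no or hardly any control reads, whose fold depends on the model's prior.

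By annotation, members are set beside all regions without a miR-122 match. In 3'UTRs 22 of 198 tested members were lower and 50 higher, with a median log2 fold change of 0.50. For all 5804 tested 3'UTR regions without a miR-122 match the median was 0.54, and 7.63% were lower and 31.1% higher, and the 3'UTR members had 11.1% and 25.3%. In coding sequence the balance was turned, with 32 of 166 members lower and 19 higher at a median of 0.11. All 5215 coding regions had 20.1% lower and 9.68% higher, and the members 19.3% and 11.4%. Of 31 tested 5'UTR members 6 were lower and 3 higher (19.4% and 9.68%), with a median of -0.30. All 635 tested 5'UTR regions without a miR-122 match had 22.7% lower and 13.1% higher, at a median of -0.05.

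Counts by length of match are set against 13.2% lower and 21.3% higher, at a median of 0.26, over regions without a miR-122 match. Of 73 tested 8mers 8 were lower and 9 higher, with a median of 0.12. Among 127 with a 7mer-m8, 26 were lower and 21 higher, at a median of 0.19. The 82 with a 7mer-A1 had 7 lower and 22 higher (median 0.51), and the 176 with a 6mer had 22 lower and 46 higher (median 0.44). By place, 8mers in coding sequence had a median of -0.45 over 27 regions and 8mers in 3'UTRs 0.55 over 36. Members without a match of any other family had 31 lower and 40 higher of 139, and those with another family 32 and 58 of 319. Regions of the partner microRNAs had medians of 0.48 (miR-23, 643 tested) and 0.38 (miR-27, 1101 tested).

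**Figure D3:**
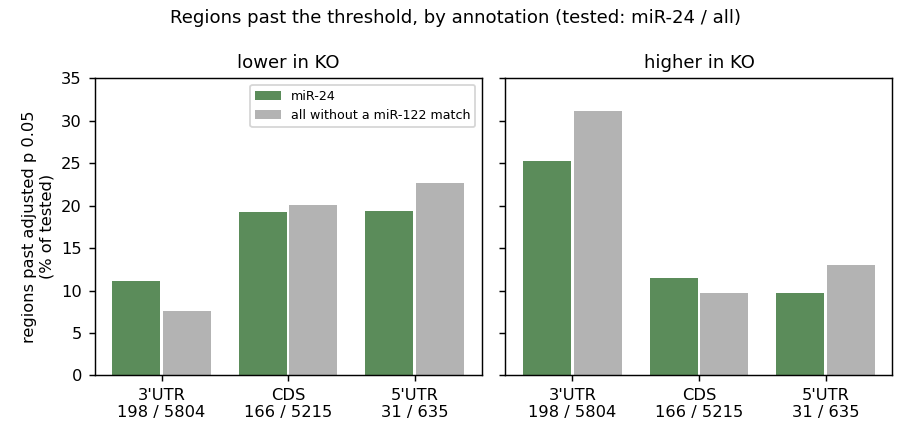
Percentage of tested regions that passed an adjusted p of 0.05 (y axis), lower (left) and higher (right) in KO, for miR-24 regions (green) and all regions without a miR-122 match (grey), with the numbers tested under each annotation. Members were more often higher than lower in 3'UTRs and more often lower than higher in coding sequence, as were the grey bars.

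The best covered member lay in the 5'UTR of Pank1, which encodes pantothenate kinase, the first enzyme of coenzyme A synthesis (chr19:34877702-34877771, minus strand, a 7mer-m8). It held 1299, 1668, 919.7, 688 and 444 CPM in controls and 150.3, 252, 165 and 156 CPM in KO. All KO libraries lay below all controls. The log2 fold change was -2.11 ± 0.37 (adjusted p = 1.50e-04). The other 16 regions of Pank1 without a miR-122 match fell together with it, from 676 ± 227 CPM to 239 ± 37.3 CPM, and Pank1 also held 2 regions with a miR-122 match.

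Other highly covered members lay on enzymes and plasma proteins of hepatocytes. The 3'UTR region of Acadsb, a mitochondrial acyl-CoA dehydrogenase, went from 728 ± 194 to 422 ± 120.0 CPM (log2 fold change -0.87 ± 0.30, adjusted p = 0.0265), with overlapping groups. Without KO replicate 1 its adjusted p was 0.213, and without control replicate 4 it was 0.0719. It was 0.0879 with upper quartile factors and 0.102 in males alone. A coding 8mer of Alb, the serum albumin gene, held 413 ± 68.0 and 323 ± 48.1 CPM (adjusted p = 0.388). The coding region of Gstm1, a glutathione S-transferase, held 129 to 191 CPM in controls and 284 to 373 CPM in KO (1.22 ± 0.22, adjusted p = 2.67e-04).

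Slc40a1, which encodes the iron exporter ferroportin, carried a coding 8mer with a phyloP of 2.81. Its levels were 214, 116, 197, 256 and 209 CPM in controls and 189, 263, 276 and 194 CPM in KO. The groups overlapped (log2 fold change 0.08 ± 0.25, adjusted p = 0.812). The other 11 regions of the gene stood at 593 ± 80.7 and 1014 ± 142 CPM. A pair of regions among the 10 best covered bore no gene name. The region at chr6:3200757-3200826 held 538 ± 126 and 598 ± 125 CPM, and the one at chr10:34898718-34898787 rose from 128 ± 34.0 to 275 ± 52.3 CPM (adjusted p = 4.64e-04). Khnyn, which encodes a putative RNA-binding nuclease, was also among them, with 286 ± 78.7 and 342 ± 90.3 CPM in its 3'UTR (adjusted p = 0.242).

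Genes that miR-24 has been reported to target elsewhere, a list of 41, held 26 members on 19 genes, and 5 were tested. Of these 3 rose and 1 fell, where 21.3% of regions without a miR-122 match were higher and 13.2% lower. The 3'UTR of Acvr1b, the activin receptor ALK4 of the TGF-beta family, held a 7mer-m8 with 31.6, 26.1, 17.4, 14.5 and 13.3 CPM in controls and 53.3, 57.8, 51.9 and 35.1 CPM in KO. Every KO library was above every control (log2 fold change 1.503 ± 0.34, adjusted p = 0.00138). Mmp14, a membrane-bound matrix metalloproteinase, rose from 31.3 ± 9.96 to 70.7 ± 11.0 CPM in its 3'UTR (1.15 ± 0.32, adjusted p = 0.00664), again without overlap. H2afx, the histone variant of the DNA damage response, rose from 12.2 ± 6.402 to 28.8 ± 7.58 CPM (1.38 ± 0.40, adjusted p = 0.00858), with overlapping groups. Its adjusted p was 0.0522 without control replicate 4, 0.0783 without KO replicate 1 and 0.139 in males alone.

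Furin, the proprotein convertase that processes TGF-beta and other precursors, went the other way. Its 3'UTR region (chr7:80389995-80390128, minus strand, a 7mer-m8 with a phyloP of 2.11) held 48.3, 52.1, 66.0, 55.9 and 45.6 CPM in controls and 14.2, 25.3, 7.89 and 10.8 CPM in KO. The groups did not overlap (log2 fold change -1.83 ± 0.37, adjusted p = 5.87e-04). The other 14 regions of Furin without a miR-122 match went from 133 ± 19.0 to 191 ± 10.3 CPM, the opposite direction. Insig1, a sterol sensor of the endoplasmic reticulum, held 12.2 ± 7.62 and 13.7 ± 7.27 CPM (-0.25 ± 0.47, adjusted p = 0.691).

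The remaining reported targets had too few reads for the test. The 8mer in the 3'UTR of Cdkn1b, the cell cycle inhibitor p27, had 14 control and 41 KO reads over all libraries, and that of Bcl2l11, the apoptosis gene Bim, 16 and 15. The 6mer in Tgfbr1, a TGF-beta receptor, had 16 and 56 reads, and the 7mer-m8 of Per2, a clock gene, 5 and 32. Myc, the growth regulator, had 3 and 7, and Hnf4a, the hepatocyte transcription factor, 28 and 19. At such depth a difference is not detectable reliably, and no direction is drawn from these. Nor did the cell cycle and replication list carry a test: of its 24 genes only Plk3 held members, 2 in number, and neither had enough reads.

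**Figure D4:**
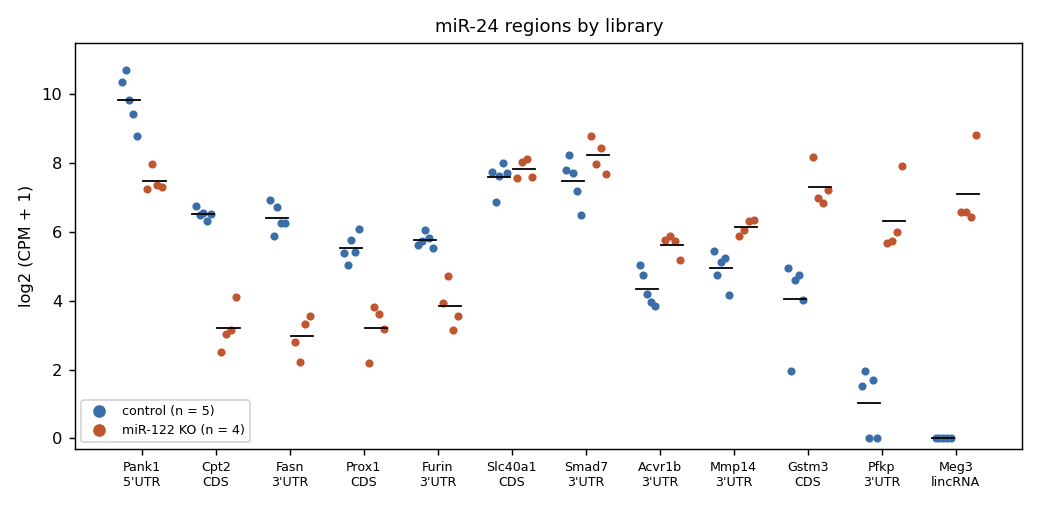
Level on the log2(CPM + 1) scale (y axis) of 12 miR-24 regions, with a point per library (blue control, orange KO) and a bar at each group mean. Pank1, Cpt2, Fasn, Prox1 and Furin lie lower in all 4 KO libraries, Acvr1b, Mmp14, Gstm3, Pfkp and Meg3 higher, and the groups overlap for Slc40a1 and Smad7.

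A list of lipid and sterol genes was looked at next. Of its 34 genes 13 held 23 members, and 5 of the 9 tested fell while 0 rose, with a median log2 fold change of -1.30. The background without miR-122 matches was 13.2% lower and 21.3% higher, at a median of 0.26. Summed hepatocyte markers were also lower in KO, at 19623 to 24054 CPM against 33442 to 42050 CPM. Their part in these losses was not tested, nor was that of miR-122 sites on the marker genes in the sum. The coding region of Cpt2, which imports fatty acids into mitochondria for oxidation (chr4:107923304-107923373, minus strand, a 6mer), held 108, 89.8, 92.7, 78.2 and 91.2 CPM in controls and 4.73, 7.23, 7.89 and 16.2 CPM in KO. The highest KO value was far under the lowest control. Its log2 fold change was -3.48 ± 0.36 (adjusted p = 8.37e-07).

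Fasn, the enzyme that makes palmitate, held 3 of the 5 losses. Its 3'UTR 7mer-m8 (chr11:120807546-120807615, minus strand) held 121, 57.9, 104, 76.0 and 76.0 CPM in controls and 5.92, 3.61, 9.02 and 10.8 CPM in KO (log2 fold change -3.56 ± 0.39, adjusted p = 1.58e-06). The coding 8mer at chr11:120807863-120807932 went from 187 ± 46.1 to 19.6 ± 21.2 CPM (-3.46 ± 0.49, adjusted p = 2.05e-05), where KO replicate 4 held 51.2 CPM and the other KO libraries 6.76 to 11.8. A coding 6mer fell from 20.7 ± 8.59 to 5.30 ± 4.07 CPM (adjusted p = 0.0363), and its adjusted p was 0.148 without KO replicate 1, 0.0799 without KO replicate 3, 0.0752 with upper quartile factors and 0.0510 by library total. The remaining regions of the gene fell too: those other than the 3'UTR member went from 893 ± 113 to 181 ± 48.2 CPM.

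The 3'UTR 6mer of Hmgcs1, the cytosolic enzyme of cholesterol synthesis, held 186 ± 62.9 and 151 ± 38.2 CPM (log2 fold change -0.19 ± 0.30, adjusted p = 0.630). Members on Acly, which supplies acetyl-CoA for lipid synthesis, and on Dgat2, which completes triglycerides, did not pass either.

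Hepatocyte products gave 10 tested members on Alb, Apob, Ahsg, Ass1, Tat and Cyp8b1, of which 1 fell and 0 rose. Outside miR-122 regions 13.2% of tested regions fell and 21.3% rose, which is the background for every list in this paragraph. Each list held few tested members, and none was tested against that background, so these counts are no result about the lists. Cyp8b1, a hydroxylase of bile acid synthesis, fell from 25.0 ± 9.66 to 4.32 ± 3.43 CPM in its coding region (log2 fold change -2.80 ± 0.58, adjusted p = 6.87e-04), along with the other regions of that gene. All 5 tested members of Apob, the backbone protein of lipoproteins, stayed short of the threshold. Among hepatocyte transcription factors 3 of 13 members were tested and Prox1 alone fell. Among growth and stress signalling genes 3 of 15 were tested. Smad7, the inhibitor of TGF-beta signalling, rose in its 3'UTR from 193 ± 80.4 to 311 ± 104 CPM (1.05 ± 0.27, adjusted p = 0.00353) with overlapping groups. Its adjusted p was 0.0910 with genotype alone and 0.0570 in males alone. Acvr1b rose as above, and Erbb3 did not pass. Of the silencing machinery, 5 members lay on Ago1, Ago2, Ago3, Tnrc6a and Tnrc6b, and the 1 tested, on Tnrc6a, held 12.01 ± 4.85 and 24.2 ± 7.17 CPM (adjusted p = 0.0669). That p was 0.0428 without control replicate 3, 0.0228 with upper quartile factors, 0.0431 with TMM factors on library totals and 0.0413 with genotype alone.

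The 6 losses with the smallest p-values lay on Cpt2, Ak3l2-ps, Fasn, Phf10, Rhpn2 and Ak4, in that order. The 3'UTR member of Ak4, a mitochondrial adenylate kinase, went from 51.2 ± 12.9 to 5.45 ± 0.54 CPM (log2 fold change -3.06 ± 0.38, adjusted p = 5.17e-06). The pseudogene Ak3l2-ps went from 52.3 ± 13.5 to 3.31 ± 1.04 CPM (-3.67 ± 0.38, adjusted p = 9.16e-07). Sequences of a pseudogene and its parent may share reads, so these are not to be counted as separate losses. Phf10, a subunit of a chromatin remodelling complex, fell in its 3'UTR from 39.8 ± 9.38 to 3.96 ± 2.06 CPM (-3.56 ± 0.42, adjusted p = 3.43e-06). Rhpn2 had 107 reads in controls and 0 in KO at a coding 6mer (chr7:35376195-35376264). Against a floor of 3 counts over the KO group it was at least 30.7-fold lower. The other 5 regions of Rhpn2 stood at 28.9 ± 4.03 and 22.8 ± 11.2 CPM. Rfx7, a transcription factor, had 63 control reads and 3 KO reads at a coding 6mer, so the size of its fall rests on few reads.

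The gains with the smallest p-values included members on the imprinted Dlk1-Meg3 cluster, on a glutathione S-transferase and on a glycolytic enzyme. The region annotated to Mir136, a microRNA gene of that cluster on chromosome 12, held 7.44, 0, 1.16, 4.47 and 1.90 CPM in controls and 59.2, 186, 174 and 291 CPM in KO. The lowest KO library stood well above the highest control (log2 fold change 5.25 ± 0.49, adjusted p = 2.67e-07). That region covers 52 of the 62 bases of the miR-136 hairpin, and the miR-24 match ends 5 bases before the hairpin begins. Reads of the hairpin and reads at the match therefore fall in the same count.

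Of 5 tested members on genes of that cluster all 5 were higher, where 21.3% of tested regions without a miR-122 match were. With hardly any control reads they could enter the test only through the KO group, so that count is no result. Meg3, its long noncoding RNA, held 4 of these members. The strongest (chr12:109565807-109565876, plus strand, a 6mer) had no control read and 94.7, 95.2, 85.7 and 453 CPM in KO. Against a floor of 3 counts over the control group it was at least 192-fold higher, and at least 97.0-fold without KO replicate 4. The other 46 Meg3 regions without a miR-122 match rose from 6.85 ± 7.46 to 5181 ± 5235 CPM. Pfkp, the platelet form of phosphofructokinase, rose from 1.398 ± 1.33 to 102 ± 94.1 CPM (5.77 ± 0.72, adjusted p = 5.87e-06). Gm4076 rose from 3.89 ± 3.46 to 94.9 ± 77.1 CPM, and Gm27000 and Arxes2 from no control read to 72.8 ± 61.7 and 65.6 ± 76.7 CPM. In Meg3, Pfkp, Gm4076, Gm27000 and Arxes2 KO replicate 4 was the highest library, as it was for the summed neuron markers. An unnamed region at chr17:81384135-81384204, inside the RefSeq span of the sodium-calcium exchanger gene Slc8a1, had no control read and 35.5, 32.5, 38.3 and 169.9 CPM in KO.

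Neuron marker genes held 9 members, of which 3 were tested and all 3 were higher, by log2 fold changes of 5.49 to 7.43. Over tested regions without a miR-122 match 21.3% were higher. The 16 marker genes summed to 57.0 to 74.4 CPM in controls, so members on them could hardly be tested except through KO reads. Their count is therefore no result. Across the 98 higher members, 21 had under 10 control reads in all, and for 43 the level in KO replicate 4 was more than 2 times that of KO replicates 1 to 3 on average. Gstm3, a glutathione S-transferase, was an exception among the strongest gains. Its coding 6mer held 29.7, 2.90, 23.2, 25.7 and 15.2 CPM in controls and 291, 125, 113 and 148 CPM in KO, with KO replicate 1 on top (3.15 ± 0.37, adjusted p = 3.18e-06). The other 9 Gstm3 regions rose from 119.8 ± 28.3 to 864 ± 179 CPM. Gstm1 and Gstm3 are close paralogs, and the sources used here do not say how reads common to both were assigned.

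The most conserved 8mers among tested members lay on Rap1b, Slc40a1, Lmbr1l, Taok1 and a region at chr10:68092679-68092748. Rap1b, a small GTPase, held 28.3 ± 9.997 and 28.8 ± 9.15 CPM (log2 fold change -0.02 ± 0.35), and Lmbr1l, a membrane protein, 14.6 ± 10.03 and 16.8 ± 4.75 CPM (0.10 ± 0.46). Taok1, a stress-activated kinase, held 8.61 ± 3.59 and 26.5 ± 22.0 CPM (1.33 ± 0.55, adjusted p = 0.0570), and KO replicate 4 alone stood at 59.3 CPM. Its adjusted p was 0.0407 without control replicate 1, 0.0477 without KO replicate 1 and 0.0236 without KO replicate 2. Scaling also moved it, to 0.0194 with upper quartile factors, 0.0300 by library total and 0.0430 with TMM factors on library totals, and genotype alone gave 0.0235. The chromosome 10 region was the only member of these 5 to pass the threshold. It fell from 65.5 ± 29.2 to 22.5 ± 3.39 CPM (-1.63 ± 0.32, adjusted p = 4.90e-04), and it lies inside the RefSeq span of Arid5b although the deposited annotation places it downstream of a gene.

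To set a member against its own messenger RNA, its change was compared with the change common to the tested regions of the same gene without a miR-122 match. Levels printed for the other regions of a gene sum all of them, tested or not, so they are not the baseline of that test. Of 345 members on genes with 2 or more such regions, 22 were lower and 22 higher than their gene at an adjusted p under 0.05. Over all 10104 regions in that test 5.93% were lower and 5.18% higher, and the members' counts lay near those shares. Lower counts were 13 without control replicate 3, 12 without control replicate 4 and 14 without KO replicate 1. Higher counts were 12, 5 and 10 without control replicates 3, 4 and 5, and 9 without KO replicate 1. The median difference was 0.02 for members and 0.02 for all. Of the 54 members called lower that had such a gene baseline, 18 were also lower than their gene, and of the 75 called higher 14 were also higher. The matching shares over all called regions were not taken, and both calls come from the same fit. These counts are therefore no result about miR-24 regions in particular.

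Prox1, a hepatocyte and lymphatic transcription factor, gave the smallest p among members below their gene. Its coding 8mer (chr1:190160617-190160686, minus strand, phyloP 2.32) held 40.9, 31.9, 53.3, 41.3 and 66.5 CPM in controls and 3.55, 13.3, 11.3 and 8.09 CPM in KO. All KO values were under all control values, while the other 25 regions of Prox1 went from 289 ± 68.6 to 366 ± 78.0 CPM. The region's log2 difference from its gene was -2.53 (adjusted p = 1.50e-06). Cpt2 differed from its gene by -2.25 (adjusted p = 8.31e-06), and its other 10 regions went from 562.04 ± 69.9 to 271 ± 25.0 CPM. Cdo1, the cysteine dioxygenase of taurine synthesis, fell from 193 ± 57.8 to 31.6 ± 11.9 CPM at a coding 6mer while its other 9 regions stood at 334 ± 79.4 and 317 ± 96.9 CPM (difference -2.14, adjusted p = 8.72e-06). Dcp2, the decapping enzyme, fell from 21.3 ± 7.67 to 4.28 ± 0.95 CPM at a 3'UTR 7mer-m8 against a rise of its other regions (difference -2.79, adjusted p = 7.99e-05). Furin belonged to the same group, with a difference of -1.81 (adjusted p = 2.21e-04).

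Among members above their gene, Msl1, a subunit of a histone acetyltransferase complex, held 12.4 ± 5.32 and 17.8 ± 5.15 CPM at a conserved coding 8mer while its other 9 regions stood at 121.9 ± 30.7 and 96.1 ± 37.3 CPM (difference 2.25, adjusted p = 0.00103). Its difference was 0.88 (adjusted p = 0.496) with no filter on low counts and 0.97 (adjusted p = 0.289) with a filter on the mean. C3, complement component 3, had a log2 fold change of 1.36 (adjusted p = 0.0186) at a coding 6mer (difference from its gene 1.84, adjusted p = 0.00115). The sum of its other regions, not adjusted for sex, went from 4146 ± 1223 to 2526 ± 402 CPM. Its other tested regions went both ways, with log2 fold changes from -1.739 to 1.363 in the fit with sex. The value of 1.363 belonged to the best covered of them, which was also called higher. The member's own change had an adjusted p of 0.0719 without control replicate 4 and 0.0582 without control replicate 5. It was 0.225 with genotype alone and 0.124 in males alone. Prpf19, a splicing factor, had 3 control and 66 KO reads at a 3'UTR 8mer, and Atp6v0a1, a proton pump subunit, 0 and 60 reads at an intron 6mer. In both of these KO replicate 4 was the highest library.

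**Figure D5:**
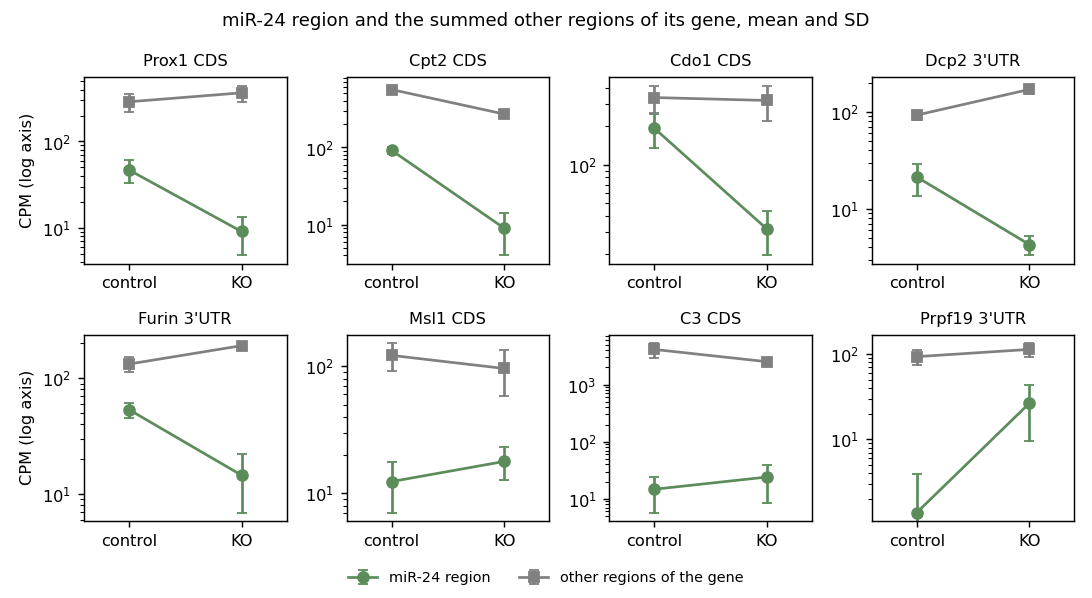
Mean CPM and SD (log y axis, a scale per panel) in control (n = 5) and KO (n = 4) for 8 miR-24 regions (green circles). Grey squares are the sum of the other regions of the same gene without a miR-122 match, tested or not. Prox1, Dcp2 and Furin fell while the rest of their gene did not, and an SD that reaches 0 is cut at the axis, as for Prpf19 in controls.

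Histone H2B genes held 10 members, and the sites of 5 of them are printed above. They were singled out after their values were seen. Each had few reads, from 13 to 115 over 9 libraries, and the 1 tested, on Hist1h2bc, held 16.8 ± 4.07 and 19.7 ± 11.2 CPM (log2 fold change 0.54 ± 0.37, adjusted p = 0.264). Of the similar pair Selenbp1 and Selenbp2, proteins that bind selenium, neither member passed the threshold.

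Sex was a term of the same fit. Of 458 members 3 were higher in males and 0 higher in females at an adjusted p under 0.05 (edgeR, and 3 and 0 with DESeq2). Over all regions 0.506% were higher and 0.122% lower in males at that adjusted threshold. At an unadjusted p under 0.05, 17 members were higher in males and 9 higher in females. No share over all regions was taken at that limit, so these counts are no result. The 3'UTR member of C9, a complement component, held 9.29, 0 and 3.47 CPM in the female controls and 29.1 and 55.1 CPM in the male controls. KO libraries had 4.73 CPM in the female and 19.3, 36.1 and 35.1 CPM in the males, so every male lay above every female (log2 fold change, male over female, 2.94 ± 0.52, adjusted p = 0.0136). Tet3, an enzyme that oxidises methylcytosine, had a log2 fold change of 1.49 ± 0.31 (adjusted p = 0.0384). Mup6, of the male-enriched major urinary protein family, had 2.07 ± 0.45 (adjusted p = 0.0474), and genes of that family are near-identical, so its reads may belong to several of them. The calls rest on few mice. Without control replicate 5 no member was called higher in males, nor without control replicate 3, and the adjusted p of C9, Tet3 and Mup6 without control replicate 5 was 0.173, 0.368 and 0.527. With any of control replicates 1, 2 or 4 or KO replicate 3 left out, 1 member was called.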

How the data were processed

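AGO CLIP-seq counts per region were taken from 1 deposited table of 143524 rows, a row for each pair of a region and a microRNA match, reduced to 92645 unique regions in 9 libraries. Per the labels' protocols, livers were powdered and crosslinked, RNA was cut with RNase I, and AGO was recovered with the antibody 2A8. The submitters' processing notes name Bowtie2 and the genome mm10, while the peak caller, the counting rule and tool versions are not stated in the labels. The deposited values are raw read counts per region, whole numbers with no normalization, and the deposited phyloP column is a conservation score of the matched bases. The authors also deposited a log2 fold change of control over KO per region, which was not used here. Regions of under about 1 read per library carry little information, and PCR duplicates, if kept, make counts less independent than they look.

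Counts were tested with edgeR 4.0.16 (R 4.3.3): filterByExpr, TMM factors, a quasi-likelihood fit and test (glmQLFit, glmQLFTest) on genotype plus sex across the 17182 regions that passed, Benjamini-Hochberg adjustment over all of them and a threshold of 0.05. CPM are reads per 1000000 of the TMM-scaled library size, ± is the SD over mice for levels and the SE for log2 fold changes, and every adjusted p in the text is from this fit unless another tool is named. A region was set against its gene with edgeR's diffSpliceDGE over genes with 2 or more tested regions without a miR-122 match. Each library is 1 mouse. Replicate numbers were checked as pairs: same-numbered control and KO libraries had correlations of deviations between -0.09 and 0.00. Differently numbered libraries had between -0.13 and 0.13. This check cannot show whether same-numbered mice were paired, so the replicate number entered only an alternative fit (the replicate block). Alternatives used DESeq2 1.42.0, other scalings, filters, terms, samples and member definitions. The scripts were tested on simulated counts.

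The members and all gene lists were chosen with earlier results of these data known. Named regions are the 10 with the highest level, the 6 with the smallest p and the 4 with the largest fold in each direction, the best covered member of each reported target, the 5 most conserved tested 8mers, the 3 per direction with the smallest p by sex and the 4 per direction against their gene. Other names (list examples, histone and Selenbp genes, Furin against its gene, neuron markers) were chosen after values were seen. Sequences are from RefSeq (GRCm38.p6) tables. Names of month form were not used, and a few members that the rule or lists hold are not reported here.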

Additional observations from a re-analysis of the deposited data

Results flagged for a closer look

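In 128 groups of 4 or 5 libraries, for the named regions, the hairpin regions and the share of counts, 15 held a library whose gap to the nearest other library exceeded Dixon's 95% limit. Chance alone gives about 1 in 20 groups, and groups of one library set are not independent.

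In 8 of the 15 the library was KO replicate 4, each time the highest. It held 243 CPM at Pfkp (other KO libraries 49.7 to 63.1), 453 CPM at Meg3 (85.7 to 95.2), 210.4 CPM at Gm4076 (52.1 to 63.1) and 165 CPM at Gm27000 (34.3 to 54.2). It held 169.9 CPM at the unnamed region on chromosome 17 (32.5 to 38.3), 181 CPM at Arxes2 (23.7 to 29.3), 59.3 CPM at Taok1 (14.2 to 18.0) and 53.9 CPM at Atp6v0a1 (14.2 to 18.0). The summed neuron markers were also highest there, at 12423 CPM against 2184 to 2881 in the other KO libraries. Their part in these values was not tested.

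The others fell in various libraries. Pank1 held 252 CPM in KO replicate 2 (other KO libraries 150.3 to 165), and Top1 held 9.47 CPM in KO replicate 1 (2.41 to 3.38). Control replicate 2 held 191 CPM at Gstm1 (other controls 129 to 136), 188 CPM at the unnamed region chr10:34898718-34898787 (108 to 119.7) and 5.79 CPM at Prpf19 (0 to 1.12). Control replicate 1 held 42.8 CPM at Rfx7 (8.69 to 17.9) and 14.9 CPM at Taok1 (5.79 to 7.82).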

How the results depend on the processing

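Calls are given here as percentages of all members, where 2.35% were lower and 3.66% higher in KO. No filter on low counts gave 4.55% and 12.7% (all 2680 tested), the replicate block 1.34% lower, and a covariate of neuron markers 0.0746% (2 regions) lower and 0 higher. The block also gave 0 members higher in males, and 8 lower and 4 higher than their gene in place of 22 and 22. Whether the replicate numbers pair mice could not be settled here. Of 63 named values 45 stayed the same with the block and 17 lost the call. Among the latter were Acvr1b (adjusted p = 0.199), Mmp14 (0.260) and H2afx (0.135). By sex, no filter gave 1 lower and 6 higher in males. The median log2 fold change (0.32) was 0.56 with upper quartile factors, 0.20 with TMM factors from regions without a miR-122 match, 0.41 with TMM factors on library totals (chosen after seeing the data), 0.22 with a filter on the mean, 0.44 with the neuron covariate and 0.21 in males alone. Restricting members to 8mers and 7mers gave 2.34% lower and 2.97% higher of those members, and no other family 2.81% and 3.62%. Including miR-122 matches gave 4.29% lower and a median of 0.18. Against all regions of the gene, 21 of 362 members were lower and 68 higher. That baseline takes in regions with a miR-122 match. The matching share over all regions was not taken, so this count is no result about miR-24 regions. The rise in share of counts (0.52 percentage points) was 0.25 for 8mers and 7mers, 0.21 with no other family, 0.17 with miR-122 matches included, 0.67 on a TMM-scaled total and 0.0239 outside miR-122 regions (also chosen after seeing the data). Leaving out 1 library gave 1.57% to 2.99% lower, 2.31% to 4.55% higher, medians of 0.29 to 0.39, 0 to 3 higher in males, 12 to 25 lower and 5 to 26 higher than their gene, and shares of 0.50 to 0.55. No member was of the class marked -B, so that alternative left the members as they were.

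Over the 63 named values, alternatives kept direction and side of the threshold 1075 times, lost the call 90 times (33 with the neuron covariate and 17 with the block), gained it 11 times and turned direction 36 times. Except where an alternative tested other regions or fewer libraries, the cause was not tested. The neuron covariate turned the unnamed chromosome 6 region to -0.43, Rap1b to 1.16, the chromosome 10 region in Arid5b to 0.31, Taok1 to -3.59, Mup6 to 0.72, the coding 6mer of Fasn to 6.33 and Hmgcs1 to 1.35. TMM factors from regions without a miR-122 match gave -0.0169 for the chromosome 6 region, -0.0406 for Slc40a1 and -0.0319 for Lmbr1l. No filter gave -0.00024, -0.0262 and -0.0074 for these, and males alone -0.31, -0.11 and -0.22. Slc40a1 was -0.0014 with the filter on the mean and -0.29 with the block. Upper quartile factors gave 0.22 for Rap1b and 0.0390 for Hmgcs1, and Rap1b was 0.0638 by library total and 0.0738 with TMM on totals. With genotype alone Insig1 was 0.0531, Rap1b 0.0186 and C9 0.21. Leaving out 1 library gave -0.0957 to 0.34 for the chromosome 6 region, -0.40 to 0.30 for Rap1b, -0.31 to 0.66 for Lmbr1l, -0.41 to 0.0621 for Insig1 and -0.70 to 0.0546 for C9. Depth limits most members, since the median member had 25 reads over 9 libraries.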
